A study of Mus musculus with 8 samples.

Results

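The genes described here encode the chains of laminins and integrins. They were the protein-coding genes whose symbols name a laminin alpha, beta or gamma chain or an integrin alpha or beta chain, and 37 of the 54532 genes in the table met that rule. The 36 described here are 10 for laminin and 26 for integrin chains. Expression was measured by bulk RNA-seq in lung endothelial cells (ECs) of wild-type (WT) mouse pups at day 14. Pups in the normoxia group stayed in room air (21% O2), and pups in the hyperoxia group stayed in 80% O2 from birth onward, a treatment used to injure the developing lung. Each group had 4 libraries. The lung cell suspensions were first cleared of cells carrying CD45, a leukocyte protein, and ECs were then taken with beads against CD31, an EC surface protein. Such an isolate is enriched and not pure, and the labels do not say how many pups went into a library, so p-values measure only the spread between these libraries. In 5 of the 8 libraries both the female transcript Xist and Y-linked genes had counts (at least 8457 and 1553), so pups of both sexes had gone into them. Xist had 3 counts in normoxia 2 and 5 in hyperoxia 4, and Y-linked genes had 7 counts in hyperoxia 3 against at least 1553 in every other library. The part of sex in the results was not tested.

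Laminins are trimers of 1 alpha, 1 beta and 1 gamma chain that polymerise into the sheet of the basement membrane on which endothelium and epithelium rest. Integrins are receptors of 1 alpha and 1 beta chain that hold cells to laminin, collagen, fibronectin and other ligands and connect them to the actin cytoskeleton. In the lung, capillary endothelium and alveolar epithelium share a fused basement membrane. Endothelial laminins are built mainly on the Lama4 and Lama5 chains, while the Lama3 and Lamb3 chains are typical of epithelia.

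Libraries held 16098086 to 18300730 counts, and laminin and integrin chain genes together took 0.626 to 0.634% of counts in normoxia and 0.712 to 0.748% in hyperoxia. Levels are given as CPM, the counts of a gene scaled to a common library total after TMM adjustment of the library sizes. Levels of different chain genes are compared only as FPKM, which also divides by gene length. The summed level of 10 general EC markers, among them Pecam1 and Cdh5, was 15945 to 16868 CPM in normoxia and 15501 to 16332 CPM in hyperoxia. Single markers did change, and 3 were higher (Cldn5, Kdr and Emcn) and 3 lower (Tie1, Tek and Erg). Tek went from 1182 to 682 CPM in the mean and Emcn from 262 to 350 CPM. Among capillary EC markers, all 6 of aerocytes were higher in hyperoxia (1035 to 1434 against 2293 to 2737 CPM in sum), and of 6 for general capillary cells 1 was higher and 4 were lower (8644 to 9993 against 7169 to 8327 CPM). Markers of other cells were present too. Of the 8 alveolar type 2 epithelial markers, all 8 were higher in hyperoxia, and their summed level went from 237 to 335 CPM in normoxia to 759 to 2287 CPM in hyperoxia. All 7 alveolar type 1 markers (77.0 to 95.1 against 161 to 456 CPM) and all 6 general epithelial markers (6.24 to 14.3 against 28.3 to 93.5 CPM) were also higher, as were 6 of 8 markers of mural cells and 4 of 6 tested markers of fibroblasts. Hyperoxia 3 differed from the rest of its group in these markers, with 0.348 times their mean for the type 2 list, 0.374 for type 1, 0.326 for general epithelial, 0.424 for fibroblast, 0.692 for mural, 0.509 for leukocyte and 0.688 for platelet markers, but 1.02 for the general EC list. None of these lists had a marker at 0 in all libraries. The part of these cells in the results that follow was not tested beyond the values given beside them, and in bulk samples fewer cells of a type and less RNA per cell cannot be told apart.

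Laminin and integrin chain genes were mostly higher in hyperoxia. Of the 36 genes, 33 had enough counts to be tested, and 22 were higher, 3 were lower and 8 did not pass, so that 75.8% of the tested chain genes were called, against 35.6% of all genes tested. The test was the quasi-likelihood test of edgeR with Benjamini-Hochberg adjustment over all 15564 genes tested, and a gene passed at an adjusted p under 0.05. Over all genes tested, 18.5% were called higher and 17.1% lower. All 10 laminin chain genes rose, whereas among the 23 tested integrin chain genes 12 rose and 3 fell. The median log2 fold change, hyperoxia over normoxia, was 0.72 for laminin chains and 0.48 for integrin chains, against -0.004 for all genes. Called changes of at least 1 on the log2 scale were found for 8 genes upward (5.62% of all genes) and for 0 downward (1.36%). The libraries of the groups did not overlap for 18 genes with hyperoxia above (17.8% of all genes) and for 3 with hyperoxia below (17.6%). An epithelial term was then added, the mean log2 CPM of the alveolar type 2 and general epithelial markers of each library. It ran from 2.08 to 2.81 in normoxia and from 3.99 to 5.54 in hyperoxia and so separates the groups by itself. Within hyperoxia it was 3.99 in hyperoxia 3 and 5.41 to 5.54 in the other libraries. Values with the term are therefore tied largely to the level of a gene in hyperoxia 3 and are not a separate result. With it, 235 of all 15564 genes tested were called, against 5535 without it. Of the 25 chain gene calls 5 remained, namely Lama1, Lama4, Lamb1, Lamc1 and Itga3.

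**Figure D1:**
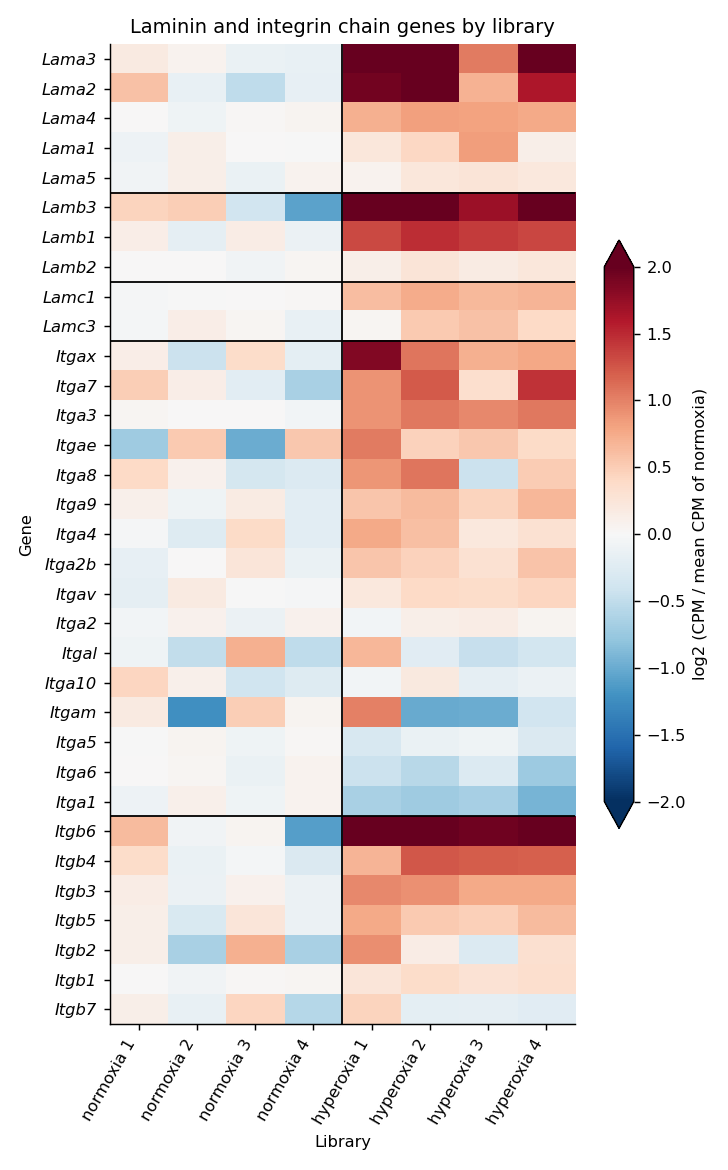
Each row is 1 of the 33 tested laminin or integrin chain genes and each column 1 library, and the color gives the log2 of its CPM over the mean CPM of the gene in normoxia, with colors saturated beyond 2 in either direction. Most rows are positive throughout hyperoxia, Itga1, Itga5 and Itga6 are negative there, and hyperoxia 3 is paler than the other hyperoxia libraries for Lama2 and Lama3.

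**Figure D2:**
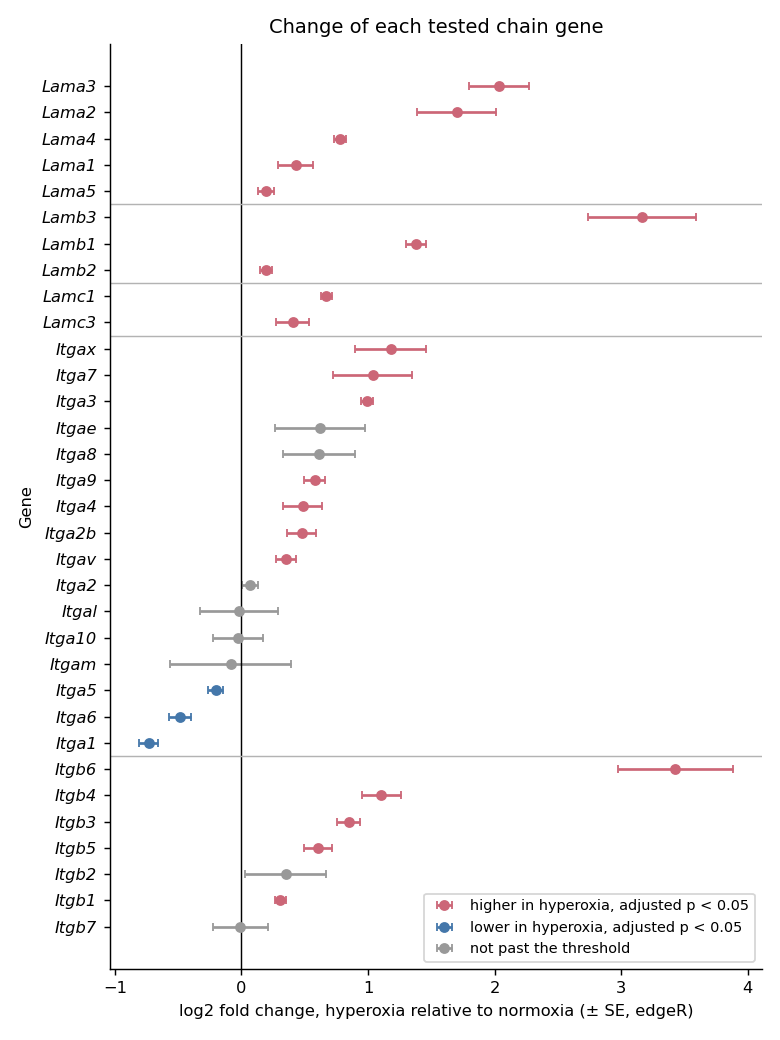
Points are log2 fold changes of hyperoxia over normoxia from edgeR for each tested chain gene and bars are 1 SE, in red for genes called higher, blue for genes called lower and grey for the others. The largest rises shown are Itgb6 (3.43) and Lamb3 (3.17), and the largest fall is Itga1 (-0.73).

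Among the laminin alpha chains, Lama4, Lama5 and Lama3 had the highest levels per length in hyperoxia, and the sum of the 5 alpha chains was 63.7 ± 3.82 FPKM in normoxia and 83.8 ± 3.96 FPKM in hyperoxia (SD, n = 4 each). Lama4 (chromosome 10, 38965515 to 39110188, build GRCm38), the chain of endothelial laminins that lacks the end domain needed for polymerisation, measured 116, 109, 118 and 121 CPM in normoxia and 189, 205, 203 and 197 CPM in hyperoxia. Every hyperoxia library lay above every normoxia library and hyperoxia 3 lay among its group. On the log2 scale the fold change was 0.78 with an SE of 0.048 and an adjusted p of 1.27e-06 in edgeR. Lama5 (chromosome 2, 180176373 to 180225859), the other main alpha chain of vessel walls, measured 541, 621, 521 and 597 CPM in normoxia and 599, 669, 679 and 662 CPM in hyperoxia. The groups overlapped, because hyperoxia 1 lay below normoxia 2. Its log2 fold change was 0.19 with an SE of 0.065 and an edgeR adjusted p of 0.0395, and the call was lost on leaving out normoxia 1, normoxia 3, hyperoxia 2, hyperoxia 3 or hyperoxia 4 (adjusted p of 0.102, 0.0954, 0.097, 0.086 and 0.0825) and when only protein-coding genes were fitted (0.058). With the epithelial term its log2 fold change was 0.44 and was not called.

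Lama1 (chromosome 17, 67697259 to 67822647), the alpha chain of the embryonic type of laminin, measured 26.5, 30.7, 28.4 and 28.1 CPM in normoxia and 33.4, 38.0, 50.8 and 30.7 CPM in hyperoxia. Normoxia 2 and hyperoxia 4 lay at the same level to 3 digits, and hyperoxia 3 was the highest library of all. This gave a log2 fold change of 0.43 with an SE of 0.136 and an edgeR adjusted p of 0.0309, a call that was lost without normoxia 1, normoxia 3, normoxia 4 or hyperoxia 2 (adjusted p of 0.0747, 0.0592, 0.07 and 0.0623) and in limma on log2 FPKM with a pseudocount of 1 or 0.1 (0.068 and 0.0622). It stayed called with the epithelial term, at 1.35. Lama2 (chromosome 10, 26980036 to 27619758), best known as the laminin alpha chain of muscle and nerve, measured 5.88, 3.53, 2.74 and 3.48 CPM in normoxia and 14.96, 17.3, 6.35 and 12.0 CPM in hyperoxia. Hyperoxia and normoxia libraries did not overlap, and hyperoxia 3 was the lowest of its group at 0.431 times the mean of the others. The fitted log2 fold change was 1.70 (SE 0.310, edgeR adjusted p of 0.00164), and with the epithelial term it was -0.61 and not called. Lama3 (chromosome 18, 12333819 to 12583013), the alpha chain of epithelial laminins, measured 17.3, 16.1, 13.9 and 13.9 CPM in normoxia and 68.0, 76.3, 31.5 and 74.6 CPM in hyperoxia. All hyperoxia libraries lay above normoxia, and hyperoxia 3 again had 0.431 times the mean of the other 3. Its log2 fold change was 2.03 (SE 0.240, edgeR adjusted p of 0.0001), and it was -0.038 and not called with the epithelial term.

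Among the beta chains, Lamb2 had the highest level per length and Lamb1 the smallest adjusted p. Lamb2 (chromosome 9, 108479736 to 108490530), a beta chain of mature vessel basement membranes, measured 288, 287, 271 and 294 CPM in normoxia and 309, 340, 318 and 335 CPM in hyperoxia. All hyperoxia libraries lay higher by a small step, log2 0.19 (SE 0.0475, edgeR adjusted p of 0.00962), which was 0.16 and not called with the epithelial term. Lamb1 (chromosome 12, 31265234 to 31329644), the beta chain that is prominent in developing vessels, measured 89.9, 72.4, 90.8 and 75.6 CPM in normoxia and 205, 228, 216 and 208 CPM in hyperoxia. The lowest hyperoxia library was above all normoxia libraries, and hyperoxia 3 lay at 1.01 times the mean of the other hyperoxia libraries. The log2 fold change was 1.38 (SE 0.078, edgeR adjusted p of 7.26e-07). Lamb3 (chromosome 1, 193207699 to 193343878), a beta chain of epithelial laminin, measured 3.49, 3.58, 1.96 and 1.22 CPM in normoxia and 30.2, 29.7, 8.36 and 23.4 CPM in hyperoxia. No overlap was seen between the groups, and hyperoxia 3 had 0.301 times the mean of the other 3. On the log2 scale the fold change was 3.17 (SE 0.426, edgeR adjusted p of 0.000237), and with the epithelial term it was -0.13 and not called.

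Lamb1 and Lamb3 thus rose in different ways across the hyperoxia libraries, and so did the integrin genes Itga3 and Itgb6 described later. The stretch upstream of a RefSeq start of these 4 genes is shown as an example of each pattern, on the coding strand and trimmed to bases that lie in no annotated exon, with GC boxes (GGGCGG, read on both strands) in capitals.
Lamb1, chr12:31265043-31265233, plus strand: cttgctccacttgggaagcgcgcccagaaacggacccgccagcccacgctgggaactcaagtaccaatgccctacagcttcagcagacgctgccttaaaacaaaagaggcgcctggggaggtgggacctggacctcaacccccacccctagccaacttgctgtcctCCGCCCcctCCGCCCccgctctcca
Lamb3, chr1:193301744-193301992, plus strand: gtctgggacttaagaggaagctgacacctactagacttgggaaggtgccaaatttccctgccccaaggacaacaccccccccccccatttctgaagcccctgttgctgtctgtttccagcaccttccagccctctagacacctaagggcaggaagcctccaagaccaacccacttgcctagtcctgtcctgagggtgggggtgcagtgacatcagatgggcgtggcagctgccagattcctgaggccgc
Itga3, chr11:95076802-95076964, minus strand: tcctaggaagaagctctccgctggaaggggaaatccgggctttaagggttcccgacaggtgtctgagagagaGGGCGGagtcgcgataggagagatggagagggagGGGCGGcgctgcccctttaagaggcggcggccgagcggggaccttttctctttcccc
Itgb6, chr2:60722644-60722853, minus strand: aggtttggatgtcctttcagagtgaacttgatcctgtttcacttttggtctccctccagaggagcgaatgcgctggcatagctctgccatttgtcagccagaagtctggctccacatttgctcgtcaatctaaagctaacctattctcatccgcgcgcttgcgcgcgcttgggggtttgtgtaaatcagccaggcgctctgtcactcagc
These are RefSeq sequences of build GRCm38.p6. Lamb3, Itga3 and Itgb6 each had a second RefSeq start that is not shown, and its window held 1 TEAD motif in Lamb3, 1 GC box in Itga3 and no searched motif in Itgb6. The printed stretches of Lamb1 and Itga3 held 2 GC boxes each, and those of Lamb3 and Itgb6 held none. These 4 genes are only examples, and whether GC boxes go with the level in hyperoxia 3 was not tested. A promoter window was found for 23 of the 36 genes. In the 250 bases upstream of the start, a GC box was found for 8 of these 23 genes, an AP-1 motif (TGANTCA) for 1 (Itgax) and a TEAD motif (GGAATG) for 3. Of 32851 promoter windows in the table, 32.7% held a GC box, 6.75% an AP-1 motif and 12.6% a TEAD motif. A match is a run of letters and no evidence of binding.

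The gamma chain Lamc1 was clearly higher in hyperoxia. Lamc1 (chromosome 1, 153218922 to 153332786), the gamma chain of nearly all laminins, measured 642, 645, 658 and 663 CPM in normoxia and 995, 1087, 1026 and 1041 CPM in hyperoxia. Libraries of a group were close together and the groups were far apart. This gave a log2 fold change of 0.67 (SE 0.043, edgeR adjusted p of 1.65e-06). Lamc3 (chromosome 2, 31887291 to 31946539), a minor gamma chain, measured 9.86, 11.2, 10.5 and 9.11 CPM in normoxia and 10.4, 14.6, 15.3 and 13.4 CPM in hyperoxia. The groups overlapped through hyperoxia 1. Its log2 fold change was 0.40 (SE 0.128, edgeR adjusted p of 0.031), and the call was lost without normoxia 1, normoxia 3, normoxia 4, hyperoxia 2, hyperoxia 3 or hyperoxia 4 (adjusted p of 0.0661, 0.0503, 0.0869, 0.0865, 0.0839 and 0.0606) and in limma on log2 FPKM with a pseudocount of 1 or 0.1 (0.052 and 0.0555). With the epithelial term Lamc3 was at 0.79 and not called.

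The mix of laminin chains moved with these changes. As a share of the summed FPKM of its chain type, Lama5 went from 77.8 ± 1.53% in normoxia to 68.0 ± 1.60% in hyperoxia (SD, n = 4 each), Lama4 from 14.99 to 19.5% and Lama3 from 2.22 to 6.92%. Lama5 stayed the main alpha chain in every library. Lamb2 went from 84.4 ± 1.82% to 68.1 ± 1.41% of the beta chains, Lamb1 from 14.9 ± 1.80% to 27.5 ± 1.08% and Lamb3 from 0.70 to 4.38%. Shares of a type are tied to each other, so they are given as a description without a test. The beta chains summed to 55.1 ± 1.32 FPKM in normoxia and 78.1 ± 3.80 FPKM in hyperoxia (SD, n = 4 each).

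**Figure D3:**
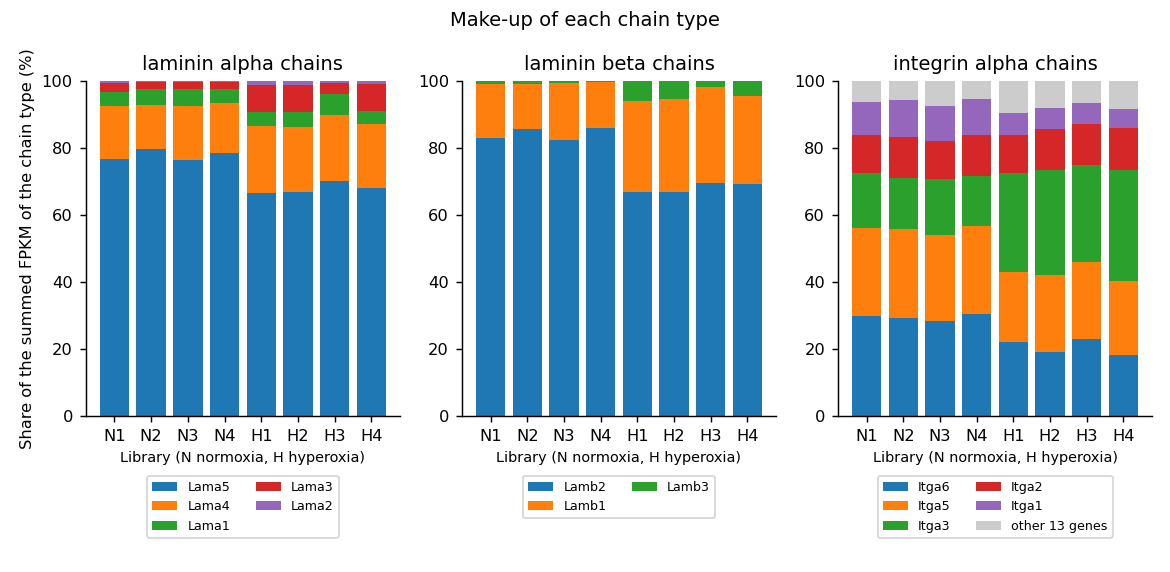
Stacked bars give the share of each chain in the summed FPKM of its chain type, in percent, for every library. The share of Lama5 went from a mean of 77.8 to 68.0% and that of Lamb2 from 84.4 to 68.1%, and the share of Itga3 went from 15.8 to 30.7%.

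The integrin beta chains were dominated by Itgb1, the partner of most laminin and collagen receptors, at 393 FPKM in normoxia and 487 FPKM in hyperoxia, or 91.7 and 89.8% of the beta chains. Itgb1 (chromosome 8, 128685654 to 128733200) measured 1627, 1533, 1638 and 1664 CPM in normoxia and 1921, 2077, 1968 and 2033 CPM in hyperoxia. The groups did not overlap. The log2 fold change was 0.31 (SE 0.046, edgeR adjusted p of 0.000471). Itgb4 (chromosome 11, 115974709 to 116008412), which pairs with Itga6 in hemidesmosomes of epithelia and also occurs in vessels, measured 46.6, 32.9, 35.3 and 29.6 CPM in normoxia and 58.1, 85.7, 83.7 and 83.0 CPM in hyperoxia. Hyperoxia and normoxia libraries did not overlap, and here hyperoxia 1, not hyperoxia 3, was the low library of its group. On the log2 scale the fold change was 1.11 (SE 0.151, edgeR adjusted p of 0.000262), and 7.66% of the exon bases of Itgb4 are shared with a gene on the opposite strand.

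The laminin-binding alpha chains went in opposite directions. Itga3 (chromosome 11, 95044474 to 95076801), an alpha chain of laminin receptors, measured 311, 302, 303 and 289 CPM in normoxia and 561, 627, 585 and 623 CPM in hyperoxia. Hyperoxia libraries were all far above normoxia, and hyperoxia 3 lay at 0.970 times the mean of the others. The log2 fold change of 0.99 had an SE of 0.0496 and the smallest adjusted p among the chain genes, 3.06e-07 in edgeR. Itga6 (chromosome 2, 71745616 to 71858416), the other main laminin-binding alpha chain of ECs, measured 894, 912, 814 and 939 CPM in normoxia and 662, 606, 739 and 539 CPM in hyperoxia. No overlap was seen between the groups, and hyperoxia 3 was the least reduced. Its log2 fold change was -0.48 (SE 0.0881, edgeR adjusted p of 0.00163), and it was -0.01 with the epithelial term in the model. Itga7 (chromosome 10, 128933818 to 128958282), a laminin-binding alpha chain of muscle, measured 1.47, 1.14, 0.895 and 0.663 CPM in normoxia and 1.94, 2.44, 1.32 and 2.83 CPM in hyperoxia. The groups overlapped through hyperoxia 3. This gave a log2 fold change of 1.04 (SE 0.312, edgeR adjusted p of 0.0242), and the call was lost without normoxia 3, normoxia 4, hyperoxia 2 or hyperoxia 4 (adjusted p of 0.0587, 0.0676, 0.0665 and 0.0757) or on log2 FPKM with a pseudocount of 1 (0.0567). With the epithelial term it was -0.72 and not called.

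The collagen-binding alpha chains did not rise. Itga1 (chromosome 13, 114953096 to 115101964), a receptor chain for collagen of basement membranes, measured 611, 705, 622 and 691 CPM in normoxia and 419, 402, 414 and 346 CPM in hyperoxia. The ranges of the groups were separate, and the fold change of 0.601 was the largest fall of any chain gene, with a log2 fold change of -0.73 (SE 0.0721, edgeR adjusted p of 2.81e-05). With the epithelial term Itga1 was at -0.50 and not called. Of its exon bases, 3.68% are shared with a gene on the same strand. Itga2, which neighbors Itga1 on chromosome 13 (114833081 to 114932100) and also encodes a collagen receptor chain, measured 271, 299, 259 and 298 CPM in normoxia and 270, 306, 313 and 292 CPM in hyperoxia. The groups overlapped widely, with a log2 fold change of 0.07 (SE 0.0635, edgeR adjusted p of 0.447). Itga10, a collagen receptor chain of cartilage, lay between 2.91 and 5.14 CPM in all libraries (log2 fold change -0.02, edgeR adjusted p of 0.936), and 33.5% of its exon bases are shared with a gene on the same strand. Itga11 had 30 counts over all libraries and was not tested.

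Per length, Itga6, Itga5 and Itga3 were the leading alpha chains, and Itga3 took the first place in hyperoxia. Of the summed alpha chain FPKM, Itga6 made up 29.5 ± 0.979% in normoxia and 20.6 ± 2.23% in hyperoxia, Itga5 26.2 ± 0.253 and 22.2 ± 0.931%, Itga3 15.8 ± 0.83 and 30.7 ± 2.06% and Itga1 10.6 ± 0.510 and 6.21 ± 0.438% (SD, n = 4 each). The sum itself was 332 ± 10.01 FPKM in normoxia and 340 ± 14.6 FPKM in hyperoxia, so the libraries of the groups overlapped in the sum and not in the share of Itga3. The beta chain sum was 428 ± 19.6 FPKM in normoxia and 543 ± 16.3 FPKM in hyperoxia.

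The receptor chains for fibronectin, vitronectin and other ligands with an RGD motif were mostly higher in hyperoxia, but Itga5 was lower and Itga8 did not pass. Itga5 (chromosome 15, 103344286 to 103366763), the main fibronectin receptor chain, measured 430, 450, 408 and 441 CPM in normoxia and 347, 393, 408 and 355 CPM in hyperoxia. Normoxia 3 and hyperoxia 3 stood at nearly the same level. The fitted log2 fold change was -0.20 (SE 0.0603, edgeR adjusted p of 0.0234), and the call was lost without normoxia 2, normoxia 4, hyperoxia 1 or hyperoxia 4 (adjusted p of 0.0527, 0.0573, 0.0648 and 0.0713). With the epithelial term it was 0.084 and not called. Itgav (chromosome 2, 83724397 to 83806916), the alpha chain shared by several RGD receptors, measured 40.5, 51.8, 45.3 and 45.1 CPM in normoxia and 52.6, 59.98, 58.7 and 61.6 CPM in hyperoxia. The groups did not overlap, by a small margin between normoxia 2 and hyperoxia 1. The log2 fold change was 0.35 (SE 0.0774, edgeR adjusted p of 0.00502), and it was 0.50 and not called with the epithelial term.

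The tested beta chains that pair mainly with Itgav rose. Itgb3 (chromosome 11, 104608000 to 104670476), the vitronectin receptor chain also found on platelets, measured 13.9, 11.6, 13.3 and 11.5 CPM in normoxia and 24.4, 23.6, 21.4 and 21.2 CPM in hyperoxia. All hyperoxia libraries lay above normoxia, with a log2 fold change of 0.85 (SE 0.0903, edgeR adjusted p of 4.91e-05), which was 0.51 and not called with the epithelial term. Itgb5 (chromosome 16, 33829665 to 33949338), another vitronectin receptor chain, measured 76.4, 56.7, 83.0 and 64.4 CPM in normoxia and 118, 101, 97.4 and 109 CPM in hyperoxia. Hyperoxia and normoxia libraries did not overlap, and the log2 fold change was 0.60 (SE 0.11, edgeR adjusted p of 0.0016), which was 0.14 and not called with the epithelial term. Itgb6 (chromosome 2, 60598292 to 60722643), an epithelial chain of the receptor that activates latent transforming growth factor beta, measured 0.918, 0.569, 0.615 and 0.276 CPM in normoxia and 8.74, 8.33, 2.29 and 6.27 CPM in hyperoxia. No overlap was seen between the groups and hyperoxia 3 had 0.294 times the mean of the others. Its log2 fold change of 3.43 (SE 0.454, edgeR adjusted p of 0.000217) was the highest of the chain genes described. With the epithelial term it was -0.051 and not called. Itgb8, a further partner of Itgav, had 64 counts over all libraries and was not tested.

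Itga8, an RGD receptor chain of mesenchymal cells, measured 8.45, 6.77, 5.03 and 5.30 CPM in normoxia and 11.8, 13.4, 4.75 and 9.04 CPM in hyperoxia. It did not pass with a log2 fold change of 0.61 (SE 0.284, edgeR adjusted p of 0.121). Hyperoxia 3 was below all normoxia libraries, and without hyperoxia 3 it passed at 0.84 with an adjusted p of 0.00862. Itga2b (chromosome 11, 102453297 to 102470122), the platelet partner of Itgb3, measured 9.74, 10.9, 12.9 and 9.94 CPM in normoxia and 15.99, 14.9, 13.4 and 16.2 CPM in hyperoxia. The ranges of the groups were separate, with a log2 fold change of 0.48 (SE 0.112, edgeR adjusted p of 0.00711), and with the epithelial term it was 0.095 and not called. Of 4 tested platelet markers 0 passed, with a median log2 fold change of 0.36. The platelet list summed to 12.6 to 17.7 CPM in normoxia and 14.4 to 24.9 CPM in hyperoxia. The part of platelets in the change of Itga2b was not tested. Itga9 (chromosome 9, 118606690 to 118901003), known from lymphatic valves, measured 43.2, 38.2, 45.3 and 35.0 CPM in normoxia and 59.2, 62.9, 54.9 and 64.3 CPM in hyperoxia. The groups did not overlap, with a log2 fold change of 0.58 (SE 0.0843, edgeR adjusted p of 0.000396), which was 0.14 and not called with the epithelial term. Of the lymphatic EC markers 5 of 6 tested were higher, at summed levels of 1250 to 1339 CPM in normoxia and 1873 to 2143 CPM in hyperoxia. Most of the sum was Lyve1 (954 to 1602 CPM in the mean), and Prox1, Mmrn1 and Reln overlapped between the groups. In hyperoxia 3 the list was at 1.09 times the mean of the other hyperoxia libraries and Itga9 at 0.884 times. The part of lymphatic ECs in the rise of Itga9 was not tested.

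In hyperoxia 3, Lama2, Lama3, Lamb3, Itga7, Itga8, Itgam, Itgb2 and Itgb6 were under 0.6 times the mean of the other 3 hyperoxia libraries, which is 24.2% of the 33 tested genes against 5.78% of all genes tested. Of these 8, 5 were among those called higher, as were 22 of all 33 tested chain genes. The 22 genes at 0.8 or more (66.7%, against 86.1% of all genes) included 18 of the called genes, Lama4, Lama5, Lamb1, Lamc1, Itga3 and Itgb1 among them. Of all 33 tested chain genes, 25 (75.8%) were called. A link between calls and the level in hyperoxia 3 was not tested. Without hyperoxia 3, Lama2, Lama3, Lamb3 and Itgb6 kept their calls.

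**Figure D4:**
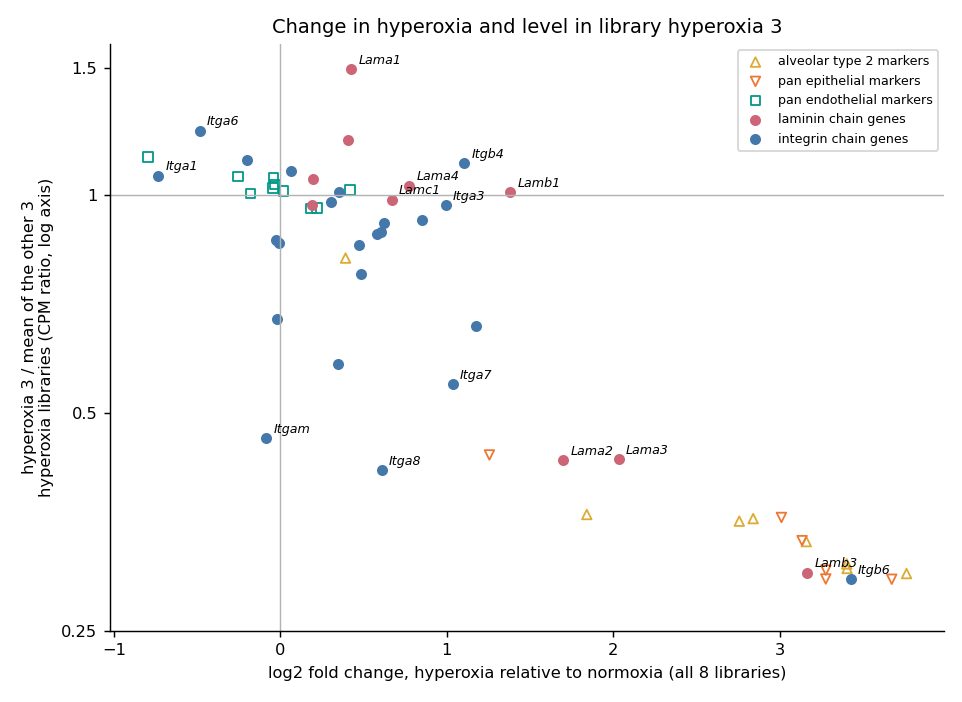
For each tested chain gene, the level in hyperoxia 3 divided by the mean of the other 3 hyperoxia libraries (vertical, log axis) is plotted against the log2 fold change of hyperoxia over normoxia, with single marker genes of type 2 cells, epithelium and ECs as open symbols. Lamb3 and Itgb6 lie at ratios of 0.301 and 0.294 among epithelial markers, and Lamb1, Lama4, Lamc1 and Itga3 lie near a ratio of 1. Fibroblast markers (ratios of 0.306 to 0.576) and mural markers (0.419 to 1.10) are not drawn. Lama2 and Itga8 lie at 0.431 and 0.417. The cell type behind a low ratio was not tested.

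Itgal, Itgb2, Itgam, Itgb7 and Itgae did not pass, and Itgal and Itgb2 were highest in single libraries of both groups. Ptprc, the gene of the CD45 protein used for depletion, measured 42.6, 25.04, 60.03 and 26.02 CPM in normoxia and 56.9, 34.0, 26.1 and 36.2 CPM in hyperoxia, so that normoxia 3 and hyperoxia 1 held the most. The summed level of 8 leukocyte markers was 164 to 348 CPM in normoxia and 214 to 518 CPM in hyperoxia. Of these 8, Lyz2 was higher (77.3 to 225 CPM in the mean, log2 fold change 1.54, edgeR adjusted p of 0.00748). The macrophage marker Cd68 was lower (-0.67, edgeR adjusted p of 0.000502) and the others did not pass. In hyperoxia 3, Lyz2 was at 0.379 times the mean of the other hyperoxia libraries, and the type 2 list was at 0.348. Itgal, the alpha chain of the main lymphocyte integrin, measured 17.9, 13.5, 31.1 and 13.3 CPM in normoxia and 30.1, 16.3, 13.7 and 14.8 CPM in hyperoxia (log2 fold change -0.02, SE 0.310, edgeR adjusted p of 0.969). Itgb2, the beta chain common to leukocyte integrins, measured 15.5, 9.16, 23.6 and 9.17 CPM in normoxia and 27.3, 15.9, 11.9 and 17.97 CPM in hyperoxia (log2 fold change 0.35, SE 0.321, edgeR adjusted p of 0.433). Both were highest in the libraries where Ptprc was highest. Itgam, a myeloid chain, ran from 1.02 to 4.80 CPM (edgeR adjusted p of 0.908), and 68.7% of its exon bases are shared with a gene on the same strand. Itgb7, the beta chain of gut-homing integrins, ran from 7.46 to 15.1 CPM (adjusted p of 0.980), and Itgae, its partner on lymphocytes of epithelia, from 0.559 to 2.28 CPM (adjusted p of 0.202). Itgae was at its lowest in normoxia 3, where Ptprc was at its highest.

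Itgax and Itga4 were the leukocyte chains that passed. Itgax (chromosome 7, 128129547 to 128150657), a chain of dendritic cells and lung macrophages, measured 2.76, 1.88, 3.24 and 2.21 CPM in normoxia and 9.08, 5.32, 4.12 and 4.33 CPM in hyperoxia. Hyperoxia and normoxia libraries did not overlap and hyperoxia 1 was the highest. The log2 fold change was 1.18 (SE 0.279, edgeR adjusted p of 0.00738), and it was -0.11 and not called with the epithelial term. Lyz2 was also highest in hyperoxia 1, at 315 CPM, as was the type 2 list, at 2287 CPM in sum. The part of any cell type in the rise of Itgax was not tested. Itga4 (chromosome 2, 79255426 to 79333123), the chain that binds Vcam1 and fibronectin, measured 43.5, 37.1, 57.8 and 38.2 CPM in normoxia and 74.8, 66.9, 50.9 and 54.6 CPM in hyperoxia. The groups overlapped because normoxia 3 lay above hyperoxia 3 and hyperoxia 4. Its log2 fold change was 0.48 (SE 0.154, edgeR adjusted p of 0.031), and the call was lost without normoxia 1, normoxia 2, normoxia 4, hyperoxia 1 or hyperoxia 2 (adjusted p of 0.0644, 0.087, 0.089, 0.0794 and 0.0802) or on log2 FPKM with a pseudocount of 1 (0.0523). With the epithelial term it was -0.30 and not called. Itgad had 7 counts in all and was not tested.

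**Figure D5:**
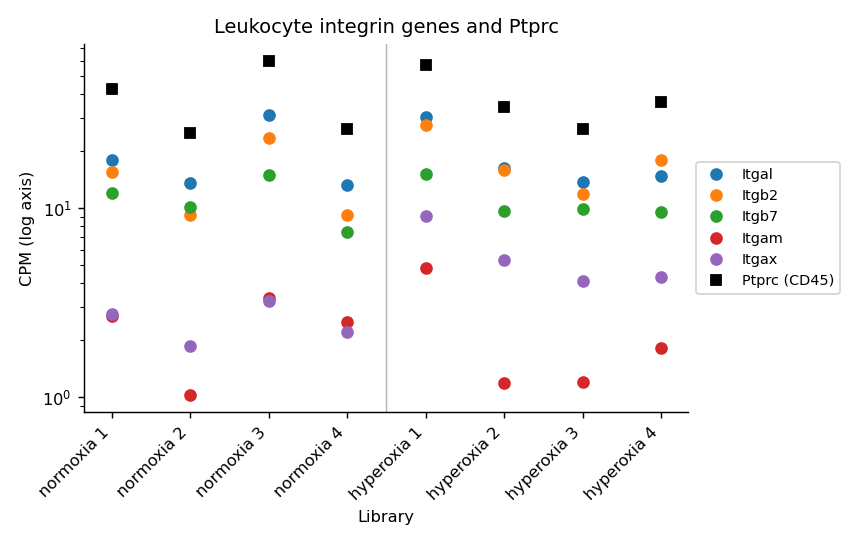
Points give CPM on a log axis for leukocyte integrin genes and for Ptprc in each library. Ptprc was highest in normoxia 3 (60.03 CPM) and hyperoxia 1 (56.9 CPM), and Itgal and Itgb2 were highest there too.

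Genes of 3 partner lists were also compared, and these lists were chosen with earlier results of these data known. Over all genes tested, 18.5% were called higher and 17.1% lower. Of 14 tested laminin partners, which are proteins of the basement membrane or binders of laminin, 11 were higher and 0 lower, with a median log2 fold change of 0.52. Col4a1 and Col4a2, the collagen chains of the basement membrane, went from 8982 ± 380 to 12724 ± 373 CPM (log2 fold change 0.50, edgeR adjusted p of 2.07e-05) and from 5694 ± 196 to 8550.5 ± 295 CPM (0.59, 6.19e-06), and Nid1, which links laminin to collagen, from 839 ± 37.9 to 1109 ± 63.4 CPM (0.40, 0.000236). Hyperoxia 3 was close to the other hyperoxia libraries for these 3 genes, at 1.01 to 1.09 times their mean. Egfl6, a matrix protein with EGF repeats, rose by 3.93 on the log2 scale (edgeR adjusted p of 9.11e-05), with hyperoxia 3 at 0.287 times the other libraries of its group. Fbln1, a fibulin (1.20, adjusted p of 0.00444) and Lgals3bp (0.87, adjusted p of 0.00113) followed.

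Of 34 tested genes of the integrin machinery, 18 were higher and 4 lower, with a median log2 fold change of 0.20. The list holds links to the cytoskeleton and also signalling genes and membrane partners, such as Src, Ptk2, Cd9 and Cd47. Actn4, an actin crosslinker, measured 833 ± 28.6 CPM in normoxia against 854 ± 34.8 CPM (log2 fold change 0.04, edgeR adjusted p of 0.589), while Flna, another crosslinker, went from 627 ± 4.05 to 901 ± 49.8 CPM (0.52, 1.62e-05) and Tln1, which activates integrins, from 733 ± 22.9 to 824 ± 21.3 CPM (0.17, 0.0107). The largest changes were those of the kinase gene Src (1.51, adjusted p of 4.48e-05), Actn1 (0.91, 1.66e-06) and the adhesion gene Vcl (0.78, 3.92e-06). Tns1, Ptk2, Cd9 and Cd47 were the 4 that fell. Of 20 tested ligands of integrins other than laminins, 15 were higher and 1, Mfge8, was lower, with a median of 0.66. Vwf, a ligand stored in ECs, was at 2071 ± 213 and 2428 ± 335 CPM (0.23, edgeR adjusted p of 0.107), and it passed without hyperoxia 1 (0.32, adjusted p of 0.0108) and with no filter on low counts (0.0474). Icam1, the endothelial ligand of leukocyte integrins, went from 318 ± 35.2 to 689 ± 28.9 CPM (1.12, edgeR adjusted p of 1.85e-06) and Icam2 from 422 ± 34.5 to 513 ± 4.99 CPM (0.28, 0.00318). Spp1 (2.25, 0.0153), Tnc (2.004, 6.89e-05) and Ctgf (1.82, 2.06e-05) had the largest log2 changes with adjusted p under the threshold, and their levels in hyperoxia 3 were 0.222, 0.560 and 0.754 times the mean of the others.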

How the data were processed

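The authors deposited 1 table of raw counts per gene and 1 table of FPKM values (scaled to gene length and library total) for all 8 libraries. The submitters' processing notes name HISAT2 2.0.5, featureCounts 1.5.0-p3 and build mm10, and the use of strand and the treatment of multiply mapped reads are not given in the sources used here. Groups came from the sample labels. The groups were compared on the counts in R 4.3.3 by edgeR 4.0.16, quasi-likelihood fit (TMM normalization, filterByExpr, group as the only term), adjusted over 15564 genes, and log2 fold changes have an SE taken from the F statistic. FPKM served for levels per length and for chain shares. The test was first checked on simulated counts. Coordinates were those of the files, checked against GENCODE M21. Promoters came from RefSeq. Chain genes past the test and the 3 most abundant of each chain type were named with all values. Of each partner list, the 3 most abundant by mean CPM and the 3 with the largest called change were named. 1 gene that met the rule is not reported here, though it stayed in every fit. The members and the lists were chosen with earlier results of these data known. The alternatives were other normalizations and filters, DESeq2 1.42.0, limma 3.58.1 (voom, and log2 FPKM with a pseudocount of 1 or 0.1), protein-coding genes only, the epithelial level as a term, the replicate number as a block and leaving out each library.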

Additional observations from a re-analysis of the deposited data

Results flagged for a closer look

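For each of the 33 tested chain genes, the most extreme library of each group was compared with the rest of its group by Dixon's criterion. In 3 of 66 groups 1 library stood apart, where 3.3 would be found by chance. Itgb4 was at 58.1 CPM in hyperoxia 1 and at 83.0 to 85.7 CPM in the other 3 hyperoxia libraries. Itgal was at 30.1 CPM in hyperoxia 1, against 13.7 to 16.3 CPM in the others, and Itgb7 at 15.1 CPM in the same library, against 9.54 to 9.85 CPM.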

How the results depend on the processing

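Of the 25 called chain genes, 19 kept their call in all 18 alternatives other than the epithelial term, and 0 changed direction. The replicate numbers did not pair the libraries (correlations of same-numbered libraries from -0.14 to 0.12, and 1 of 4 normoxia libraries correlated best with its own number), and with the replicate block 4792 genes and 25 chain genes were called. Leaving out 1 library gave 17 to 21 chain genes higher, 2 to 3 lower and 4526 to 5445 genes called overall. On FPKM with a pseudocount of 1, 3 chain genes rose by at least 1 on the log2 scale instead of 8. With the epithelial term, 5 chain genes were higher and 0 lower, 2 by at least 1 on the log2 scale, and 235 genes in all, 3 laminin partners, 2 machinery genes and 1 ligand were called. There the sign turned for Itga4 (-0.30), Itga5 (0.084), Itga7 (-0.72), Itga8 (-1.70), Itgax (-0.11), Itgb2 (-1.47), Itgb6 (-0.051), Lama2 (-0.61), Lama3 (-0.038), Lamb3 (-0.13), Fbln1 (-0.19) and Spp1 (-2.38). None of these values was called (edgeR adjusted p of 0.148 to 0.982), so they show no reversal. Others lost the call and most of their value, among them Itga6 (-0.0074), Itga2b (0.095), Itgb5 (0.14), Itga9 (0.14), Egfl6 (0.44) and Tnc (0.32), while Itgb1 (0.27) and Itgb4 (1.06) lost the call at nearly the same value. The cause was not tested. Among genes that were not called, the sign turned for Itga10 (voom 0.01057, FPKM with 0.1 0.000937, single libraries left out -0.14 to 0.14), Itgal (FPKM with 0.1 0.0012, replicate block 0.0022, single libraries left out -0.34 to 0.33), Itgam (single libraries left out -0.76 to 0.13) and Itgb7 (no filter 0.0020, voom 0.01095, FPKM with 1 0.006001, FPKM with 0.1 0.01123, replicate block 0.0048, single libraries left out -0.20 to 0.17).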
